A study of Homo sapiens with 4 samples.

Results

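The Wnt target genes described here are AXIN2, LEF1, TCF7, MYC, CCND1, DKK1, NKD1, RNF43, EPHB2 and EPHB3. They were chosen by name, as genes that beta-catenin is known to switch on, and with earlier results of these data known. Every probe of the array that carries 1 of these 10 gene names was taken, apart from control features. They are 10 of the 27719 gene names on the array. This gave 17 probes of 41000, printed as 44 of the 43376 probe spots on each array.

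In the canonical Wnt pathway, a secreted Wnt ligand binds a Frizzled receptor and its LRP co-receptor, and this blocks the destruction complex of AXIN, APC and GSK3 that otherwise marks beta-catenin for degradation. Stabilised beta-catenin enters the nucleus, binds the TCF/LEF factors on DNA and switches on target genes. Several targets feed back on the pathway: AXIN2, NKD1, RNF43 and DKK1 dampen it at different levels, TCF7 and LEF1 encode its own DNA-binding factors, MYC and CCND1 drive the cell cycle, and the EphB receptors EPHB2 and EPHB3 place cells along the intestinal crypt. HCT116, an established colon cancer cell line, carries a mutated copy of beta-catenin that resists degradation, so its Wnt target program can be active without a ligand. Whether ligands also act on it in these clones was not tested.

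The samples were HCT116 clones that stably express a short hairpin RNA (shRNA) against N-BLR, a long non-coding RNA, and an HCT116 clone that carries the empty vector. Clone #3-1 and clone #4-7 were each hybridised to 2 arrays, which the labels call biological replicates, and each of the 4 arrays also received RNA of the empty vector control. All are grown from the same parent line, with no time or dose to compare. Each group is a single selected clone, so the effect of the shRNA and the differences that any pair of clones has cannot be told apart. The labels speak of lentivirus while the study's methods describe transfection of an shRNA vector, and where nothing says that the 2 arrays of a clone came from separate cultures, p-values measure only the spread between these arrays. N-BLR was not analysed here, so the knockdown was not checked on these arrays.

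Each array measured 2 colours, and on all 4 the labels name Cy5 as the dye of the clone and Cy3 as that of the control, with no array the other way round. The value reported is the log2 ratio of Cy5 over Cy3, and "higher in a clone" below means higher in the channel labelled as that clone. By these labels the log2 ratio of CDH1, which encodes E-cadherin, was -2.66 and -2.63 on the arrays of clone #3-1 and -1.44 and -1.30 on those of clone #4-7. E-cadherin is thus lower in the channel labelled as the clone, which is opposite to the direction that the study gives for it. Besides the arrays, the study reports E-cadherin as increased in both clones by real-time PCR and by immunofluorescence. With the dyes taken the other way round, the sign of every ratio below turns and its size and test stay the same.

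The channels themselves were also compared, by their normalized levels, since the Cy3 channel should hold the same control RNA on every array. Over 40940 probes, the median absolute difference between the arrays of clone #3-1 and those of clone #4-7 was 0.065 log2 units in Cy5 and 0.144 in Cy3, while arrays of the same clone differed by a median of 0.068 in Cy5 and 0.062 in Cy3. At least 2-fold differences between the clones' arrays were seen for 40 probes in Cy5 and for 1100 in Cy3. The channel labelled as the clone was therefore alike on all 4 arrays, and the channel labelled as the common control was the one that differed between the clones. These values go against the labels, and which RNA each channel held was not tested in any other way.

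Every array held 43376 probe spots, of which 68.5% to 71.8% were well above background in Cy3 and 71.5% to 72.6% in Cy5. With 2 arrays for a clone, precision is set by their small number. Among epithelial and colon markers 9 of 12 genes were well above background, with KRT8, KRT18, KRT19 and EPCAM among them and CDX1, VIL1 and CDH17 not. Among stromal markers 3 of 8 were well above background, namely COL1A1, PDGFRA and THY1, and COL1A2, COL3A1, DCN, LUM and PDGFRB were not. Among blood and endothelial markers 4 of 7 were well above background, with CD3E, CD14 and VWF among them, and PTPRC, PECAM1 and CDH5 were not. The part of other cell types in the results was not tested.

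Of the 17 Wnt target probes, 15 were well above background on every array in Cy5, in Cy3 or in both, and the 2 probes of LEF1 were not. A probe is called changed at an unadjusted p under 0.001. In clone #3-1, 6 target probes were called higher and 4 lower, in a comparison where 15% of all probes were called higher and 15.6% lower. In clone #4-7, 3 were called higher and 4 lower, where 11.8% of all probes were called higher and 14.9% lower. These shares of all 41000 probes include 12575 that were not well above background. A fit restricted to the 28425 probes well above background called 49.6% of them in clone #3-1 and 45% in clone #4-7, in either direction. It called the same numbers of target probes. The target counts are of probes and not of genes, and every AXIN2 probe is among the higher calls of clone #3-1 and the lower calls of clone #4-7. The median log2 ratio of the 17 probes was 0.13 in clone #3-1 and -0.08 in clone #4-7, beside 0.008 and -0.0045 over all probes. The value of 0.13 is that of a LEF1 probe, so it is a ratio of signals near background. The target genes did not move as a block. RNF43 was higher in both clones, and so was NKD1, although its calls were lost under some alternative settings of the processing. The brightest MYC probe was lower in both unless ratios were only centred on each array's median. AXIN2 was higher in clone #3-1 and lower in clone #4-7, where its calls were also lost under some alternative settings. TCF7, DKK1, EPHB2 and EPHB3 were called in clone #3-1 alone. Centring on the median in place of a loess curve (a fit that removes trends of the ratio with brightness) gave 4 probes higher and 0 lower in clone #3-1, 1 higher and 0 lower in clone #4-7, and raised the share of higher calls among all called probes in clone #3-1 from 49.1% to 83%.

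**Figure D1:**
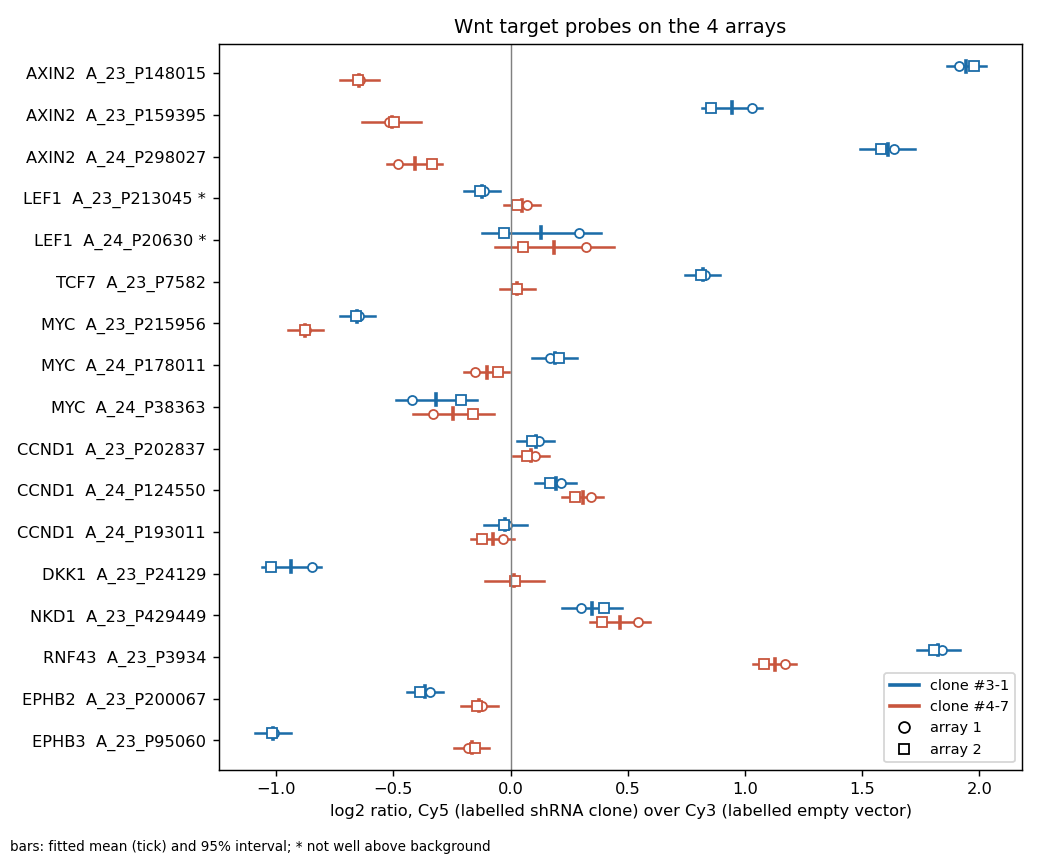
Log2 ratio of Cy5 over Cy3 (x axis) of each of the 17 Wnt target probes (y axis) on the 2 arrays of clone #3-1 (blue) and of clone #4-7 (red). Points are arrays, ticks the fitted mean and bars its 95% interval; the 3 AXIN2 probes lie to the right of 0 for clone #3-1 and to the left for clone #4-7.

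AXIN2, the scaffold of the destruction complex that is among the most widely used readouts of beta-catenin activity, differed most between the clones. Its brightest probe had log2 ratios of 1.91 and 1.98 on the arrays of clone #3-1 and of -0.64 and -0.65 on those of clone #4-7. The arrays of a clone lay close together and those of different clones on opposite sides of 0. The mean was 1.94 in clone #3-1 (95% interval 1.86 to 2.03, n = 2 arrays), which is 3.85-fold higher, with a limma adjusted p of 2.2e-05. In clone #4-7 it was -0.65 (-0.73 to -0.56), which is 1.57-fold lower, with an adjusted p of 1.6e-04.

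The other AXIN2 probes gave the same directions. A second probe read 1.03 and 0.86 in clone #3-1 and -0.52 and -0.50 in clone #4-7, with means of 0.94 and -0.51. The third probe read 1.64 and 1.58 in clone #3-1 and -0.48 and -0.34 in clone #4-7, with means of 1.61 and -0.41. All 6 tests of AXIN2 passed, with adjusted p between 2.2e-05 and 0.0015. In clone #4-7, the calls of these other probes were lost without array 1 of that clone, and that of the second also without array 2. Over all 17 alternatives, the call in clone #4-7 was lost under 3 at the brightest probe, 7 at the second and 5 at the third. The size of the AXIN2 ratio in clone #3-1 depended on the processing at all 3 probes. In the order above it was 2.50, 1.66 and 2.40 with a normexp offset of 0, 2.61, 1.88 and 2.60 with plain background subtraction, and 2.85, 2.41 and 2.79 with the scanner software's processed signals, all larger than the values given above. The first and second probes lie at chr17:60955851-60955910 and chr17:60956106-60956163 of build hg17, and the third at chr17:60984850-60984909, all on the minus strand. The third is printed here because its bases encode part of the RGS domain, by which AXIN proteins bind APC, so it reads the coding part of the transcript.

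AXIN2 A_24_P298027: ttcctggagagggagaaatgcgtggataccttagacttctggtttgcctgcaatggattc

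In single channels, the Cy5 level of the brightest AXIN2 probe was 9.50, 9.44, 9.38 and 9.42 log2 units on arrays 1 and 2 of clone #3-1 and arrays 1 and 2 of clone #4-7. Its Cy3 level was 7.59 and 7.46 on the arrays of clone #3-1 and 10.02 and 10.07 on those of clone #4-7. The Cy5 level thus varied little over the 4 arrays, and the Cy3 level separated the clones' arrays.

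RNF43, a ubiquitin ligase of the cell membrane that removes Frizzled receptors, was higher in both clones. Its probe (chr17:53786453-53786511 of hg17, minus strand) had log2 ratios of 1.84 and 1.81 in clone #3-1 and of 1.17 and 1.08 in clone #4-7, and the 4 arrays all lay above 1. The mean was 1.82 in clone #3-1 (1.73 to 1.92, 3.54-fold, limma adjusted p = 2.6e-05) and 1.13 in clone #4-7 (1.03 to 1.22, 2.18-fold, adjusted p = 7.2e-05). RNF43 was the only target gene that was more than 2-fold higher in both clones, and it kept its calls under all 17 alternative settings. Its Cy3 level was 9.75 and 9.57 on the arrays of clone #3-1 and 10.15 and 10.11 on those of clone #4-7. Its Cy5 level was 11.59, 11.38, 11.32 and 11.19 in the same order, so that it lay above the Cy3 level on every array.

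NKD1, a feedback inhibitor that binds Dishevelled, is read by a probe at chr16:49225386-49225445 of hg17 on the plus strand. Its log2 ratios were 0.30 and 0.40 in clone #3-1 and 0.54 and 0.39 in clone #4-7. The ranges of the clones overlapped. The means were 0.35 (0.22 to 0.48, limma adjusted p = 0.0032) and 0.47 (0.34 to 0.59, adjusted p = 0.0013), which are 1.27-fold and 1.38-fold. The call in clone #3-1 was lost when either of its arrays was left out, and under 9 of 17 alternatives in all. In clone #4-7 it was lost without array 1, where the remaining array gave 0.39.

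DKK1, a secreted protein that binds the LRP co-receptors and blocks Wnt reception, was lower in clone #3-1. Its log2 ratios there were -0.85 and -1.02, and in clone #4-7 they were 0.01 and 0.02, so that the clones did not overlap. The mean in clone #3-1 was -0.94 (-1.06 to -0.81), which is 1.91-fold lower, with a limma adjusted p of 1.3e-04, and it was -0.07 with no call when ratios were only centred on the median. In clone #4-7 it was 0.02 (-0.11 to 0.14, adjusted p = 0.82). The probe (chr10:53746693-53746752 of hg17, plus strand) was bright, with Cy3 levels of 16.17 and 16.08 on the arrays of clone #3-1 and of 15.18 and 15.13 on those of clone #4-7. Its Cy5 levels were 15.32, 15.06, 15.19 and 15.15, and 0 spots of it or of any other target probe were saturated.

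The sequence before the start of these genes was searched for ATCAAAG, a form of the site that TCF/LEF factors bind, and for the TCAAAG within it. Other forms of the site were not searched for. RefSeq promoter windows of build GRCh38, from 250 bases before to 50 after a gene's start, were held for LEF1, TCF7, DKK1, RNF43, EPHB2 and EPHB3, in 9 windows. The string ATCAAAG, on either strand, was in none of them, where 919 of 35116 windows (2.62%) held it. The shorter TCAAAG, called the core here, was in the windows of DKK1 alone, where 12.92% of all windows held it. Both matches are printed with the core in capitals, on the plus strand of chromosome 10, as the part of the DKK1 promoter that carries these letters. A match is a description of the letters and not a bound site.

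DKK1, chr10:52314120-52314149, core 149 bases before the start: gggtgaagagtgTCAAAGgccccccttcat
DKK1, chr10:52314174-52314203, core 95 bases before the start, on the other strand: cccctcccagcgCTTTGAaatcccatcccg

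TCF7, which encodes the TCF1 factor that pairs with beta-catenin on DNA, was higher in clone #3-1. Its probe (chr5:133511136-133511195 of hg17, plus strand), printed as 10 spots on each array, had log2 ratios of 0.83 and 0.81 in clone #3-1 and of 0.03 and 0.03 in clone #4-7. No spot of clone #3-1 was below 0.76 and no spot of clone #4-7 above 0.08. The mean in clone #3-1 was 0.82 (0.75 to 0.89), which is 1.77-fold higher, with a limma adjusted p of 5.3e-05. In clone #4-7 it was 0.03 (-0.05 to 0.10, adjusted p = 0.48). In single channels the Cy5 level was 10.78, 10.76, 10.73 and 10.70, and the Cy3 level was 9.96 and 9.94 on the arrays of clone #3-1 and 10.70 and 10.67 on those of clone #4-7.

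LEF1, the other TCF/LEF factor among the targets, was not well above background in either channel on any of the 4 arrays. Its log2 ratios, -0.12, -0.13, 0.07 and 0.03 for the first probe and 0.29, -0.03, 0.32 and 0.05 for the second, are therefore ratios of signals near background, and no fold is given. Neither probe was called in either clone. The first probe, at chr4:109357057-109357116 of hg17 on the minus strand, is shown because its bases encode the start of the DNA-binding HMG box, so that the low signal was read from the coding part of the transcript.

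LEF1 A_23_P213045: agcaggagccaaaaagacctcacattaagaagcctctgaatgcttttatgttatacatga

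MYC, the transcription factor that drives growth and division, was read by 3 probes that did not give the same result. The brightest, printed as 10 spots, had log2 ratios of -0.65 and -0.66 in clone #3-1 and of -0.87 and -0.88 in clone #4-7. The spots ranged from -0.76 to -0.59 on the arrays of clone #3-1 and from -0.93 to -0.80 on those of clone #4-7. The means were -0.65 (-0.73 to -0.58, 1.57-fold lower, limma adjusted p = 8.7e-05) and -0.88 (-0.95 to -0.80, 1.83-fold lower, adjusted p = 7.5e-05), but with ratios only centred on the median clone #3-1 turned to 0.14 and clone #4-7 was -0.55, with neither called. A second probe of MYC read 0.17 and 0.21 in clone #3-1 and -0.15 and -0.05 in clone #4-7. The last read -0.42 and -0.21 in clone #3-1 and -0.33 and -0.16 in clone #4-7. These 2 probes were dimmer and not called in either clone.

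CCND1, which encodes cyclin D1, was read by 3 probes with ratios near 0, except that ratios only centred on the median put them at 0.75, 0.82 and 0.60 in clone #3-1, with none called. The probe printed as 10 spots had log2 ratios of 0.12, 0.09, 0.10 and 0.07 over the arrays of clone #3-1 and then clone #4-7, and was not called. Another probe read 0.22 and 0.17 in clone #3-1 and 0.34 and 0.28 in clone #4-7, where its mean of 0.31 (0.22 to 0.40, 1.24-fold) was called with a limma adjusted p of 0.0015. That call was lost when either array of clone #4-7 was left out, with 0.28 and 0.34 on the array that remained. The third probe read -0.02, -0.03, -0.03 and -0.12 and was not called, with 95% intervals of its means from -0.11 to 0.07 and from -0.17 to 0.01. It lies at chr11:69167820-69167879 of hg17 on the plus strand and is printed because its bases encode part of the cyclin D1 protein.

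CCND1 A_24_P193011: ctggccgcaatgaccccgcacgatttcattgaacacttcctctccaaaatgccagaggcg

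**Figure D2:**
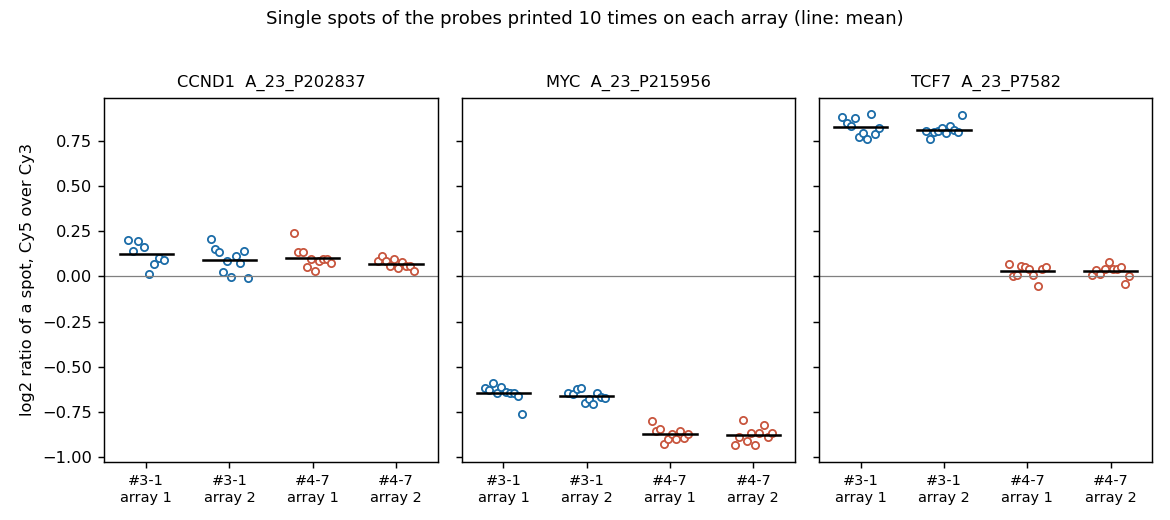
Log2 ratio of Cy5 over Cy3 (y axis) of the single spots of the CCND1, MYC and TCF7 probes printed 10 times, on each of the 4 arrays (x axis), with a line at the mean of an array. TCF7 spots lie between 0.76 and 0.90 in clone #3-1 and between -0.05 and 0.08 in clone #4-7; the values are after loess normalization, without which the MYC mean of clone #3-1 turns to 0.14.

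EPHB3 and EPHB2, receptor tyrosine kinases that respond to ephrin-B ligands on neighbouring cells, were both lower in clone #3-1. EPHB3 (chr3:185782527-185782586 of hg17, plus strand) had log2 ratios of -1.01 and -1.02 in clone #3-1 and of -0.18 and -0.15 in clone #4-7. The arrays of the clones did not overlap. The mean in clone #3-1 was -1.01 (-1.09 to -0.94), which is 2.02-fold lower, with a limma adjusted p of 4.0e-05, and -0.80 with no call when ratios were only centred on the median. In clone #4-7 the mean of -0.17 (-0.24 to -0.09) was not called at an adjusted p of 0.008.

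EPHB2 (chr1:22985897-22985956 of hg17, plus strand) had log2 ratios of -0.34 and -0.39 in clone #3-1 and of -0.12 and -0.14 in clone #4-7. The mean in clone #3-1 was -0.36 (-0.44 to -0.29, 1.29-fold lower, limma adjusted p = 5.0e-04). The call was lost without array 2 of clone #3-1, where array 1 alone gave -0.34, and with ratios only centred on the median, which gave -0.16. In clone #4-7 the mean was -0.13 (-0.21 to -0.06, adjusted p = 0.019) and was not called. All 4 arrays lay below 0 for both receptors.

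The difference between the clones was tested in the same fit, since a dye effect common to all arrays cancels in it. It was called for 7 of the 17 probes, 5 higher in clone #3-1 than in clone #4-7 and 2 lower. Of all probes, 10.9% were called higher and 9.17% lower. The fit restricted to probes well above background called 35% of them in either direction, and the target calls were again 5 higher and 2 lower. The difference was 2.59 for the brightest AXIN2 probe (2.47 to 2.71, 6.02-fold, limma adjusted p = 4.2e-05), and 1.45 and 2.02 for the other AXIN2 probes. With the processed signals these were 3.53, 3.15 and 3.29. It was 0.79 for TCF7 (0.69 to 0.90, adjusted p = 3.0e-04) and 0.70 for RNF43 (0.57 to 0.83, adjusted p = 6.7e-04). It was -0.95 for DKK1 (-1.13 to -0.77, adjusted p = 6.6e-04) and -0.85 for EPHB3 (-0.95 to -0.74, adjusted p = 2.8e-04). When ratios were only centred on the median, 3 probes were called, all higher, and the share of higher calls among all called probes went from 54.2% to 84.6%.

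The remaining differences were not called. For the brightest MYC probe the difference was 0.22 (0.12 to 0.33, limma adjusted p = 0.011), for EPHB2 -0.23 (-0.34 to -0.12, adjusted p = 0.012) and for NKD1 -0.12 (-0.30 to 0.06, adjusted p = 0.25). The intervals of the 3 CCND1 probes ran from -0.24 at the lowest to 0.18 at the highest.

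**Figure D3:**
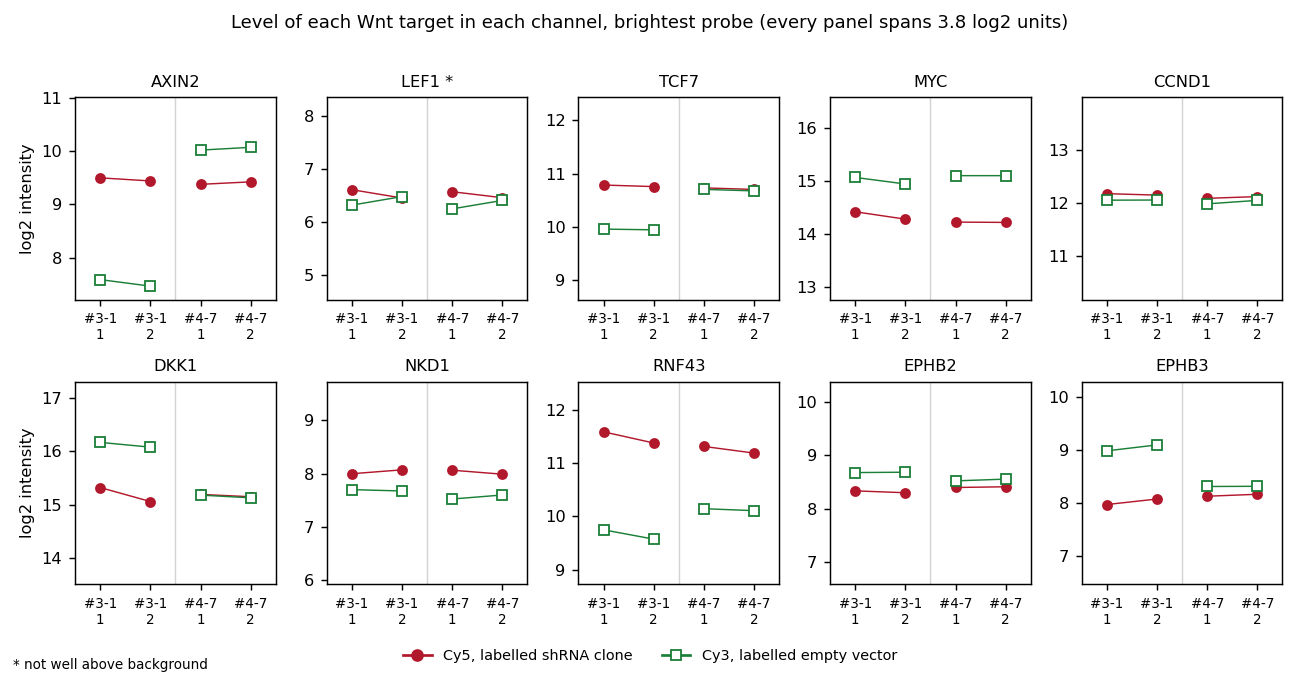
Normalized log2 intensity (y axis) of the brightest probe of each target gene in Cy5 (filled red circles) and Cy3 (open green squares) on arrays 1 and 2 of clone #3-1 and of clone #4-7 (x axis), with the same span in every panel. For AXIN2, the Cy5 points stay between 9.38 and 9.50 and the Cy3 points go from about 7.5 on the arrays of clone #3-1 to about 10 on those of clone #4-7.

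Read by channel, the differences between the clones lay in Cy3. The level of 1 target probe, RNF43 at 0.23 log2 units, differed by over 0.2 between the clones' arrays in Cy5, and 7 target probes did in Cy3, with AXIN2 the largest at -2.52. TCF7 differed by 0.05 in Cy5 and by -0.74 in Cy3, DKK1 by 0.02 and 0.97, and EPHB3 by -0.12 and 0.72. The median absolute difference over the 17 probes was 0.058 in Cy5 and 0.134 in Cy3, beside 0.065 and 0.144 over all probes. How many of all probes differed by over 0.2 was not counted. The larger difference in Cy3 was seen over all probes of the array, as given above, so it is not particular to the Wnt targets. These levels follow loess and a quantile adjustment of the arrays' mean brightness, and have no test.

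**Figure D4:**
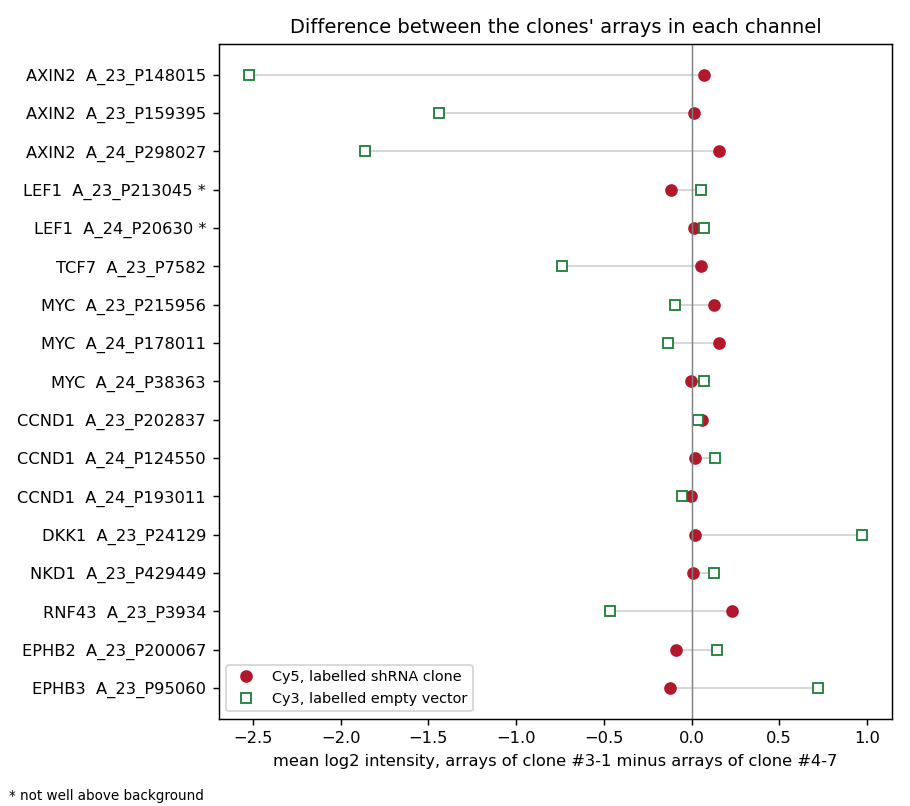
Mean log2 intensity on the arrays of clone #3-1 minus that on the arrays of clone #4-7 (x axis) for each of the 17 Wnt target probes (y axis), in Cy5 (filled red circles) and Cy3 (open green squares). The Cy5 values all lie within 0.24 of 0, and 7 of the Cy3 values, those of AXIN2, TCF7, DKK1, RNF43 and EPHB3, lie farther out.

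The other genes of the pathway were taken from lists by role, each gene read by its brightest probe. Of 134 genes listed, 132 were on the array and 101 were well above background. In clone #3-1, 22 were called higher and 30 lower, where 16.1% of all genes were called higher and 16% lower. In clone #4-7, 17 were called higher and 35 lower, where 12.3% of all genes were called higher and 15.6% lower. The difference between the clones was called for 31 genes higher and 15 lower in clone #3-1, where 11.9% and 9.77% of all genes were. These shares of all genes also stand beside the counts by role below. When only probes well above background were fitted, 49.6%, 45% and 35% of them were called in clone #3-1, clone #4-7 and for the difference. That fit called 61, 57 and 56 pathway genes in the same order, and these, not the counts above, stand beside its shares. Over the 34 pathway genes named here the standard error of a clone's log2 ratio was 0.029 to 0.069, and the limma adjusted p of their calls was at most 0.0023 in clone #3-1, 0.0028 in clone #4-7 and 0.0033 for the difference.

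Upstream of the receptors, 1 of 22 ligands and R-spondins was called higher and 5 lower in clone #3-1, and 4 higher and 1 lower in clone #4-7. WNT3A, a ligand that activates the beta-catenin branch, was higher in both, with mean log2 ratios of 1.53 in clone #3-1 and 0.95 in clone #4-7. WNT3 was 0.31 in clone #3-1, not called, and 0.75 in clone #4-7. WNT7B was lower in clone #3-1 at -0.50 and higher in clone #4-7 at 0.50, although its second, dimmer probe was not called in either clone. WNT10A was lower in both, at -0.51 and -0.28, while its second probe was lower in clone #3-1 at -0.40 and -0.13 in clone #4-7, not called. Of the genes for Wnt secretion, PORCN, which attaches the lipid that Wnt proteins need, was lower at -0.57 and -0.32, but turned to 0.11 in clone #3-1 with ratios only centred on the median. WLS, the carrier of Wnt to the cell surface, was 0.17 in clone #3-1, not called, and lower in clone #4-7 at -0.57.

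Of 18 receptors, 4 were called higher and 4 lower in clone #3-1, and 2 higher and 7 lower in clone #4-7. FZD4, a Frizzled receptor, was lower at -0.32 and -0.88, but turned to 0.16 in clone #3-1 with ratios only centred on the median, and its second probe gave 0.02 and -0.15, called in neither clone. RYK was lower at -0.35 and -0.48. ROR2 was higher in clone #3-1 at 0.49 and lower in clone #4-7 at -0.27, while ROR1 was 0.34 in clone #3-1, not called, and higher in clone #4-7 at 0.41. Their second probes were called in neither clone, at 0.19 and 0.002 for ROR2 and 0.05 and -0.14 for ROR1. LGR5, the R-spondin receptor of crypt stem cells, was not well above background in either clone.

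Of 14 extracellular inhibitors, 5 were well above background, 1 was called higher and 2 lower in clone #3-1, and 2 higher and 2 lower in clone #4-7. FRZB, a secreted Frizzled-like decoy, was lower in clone #3-1 at -1.24 and higher in clone #4-7 at 1.02, and its second probe gave -1.30 and 1.18. NOTUM, which strips the lipid from Wnt proteins, was higher in both at 0.63 and 0.36. DKK3, a relative of DKK1, was lower in clone #3-1 at -0.59 and -0.01 in clone #4-7, not called, and its other 2 probes were not called. KREMEN1, a receptor for DKK proteins, was 0.09 in clone #3-1, not called, and lower in clone #4-7 at -0.39, while its second probe gave -0.22 and -0.17, called in neither clone.

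CTNNB1, which encodes beta-catenin, was not called at its brightest probe. Its log2 ratios were 0.08 and 0.07 in clone #3-1 and -0.14 and -0.14 in clone #4-7, with means of 0.07 (-0.002 to 0.15) and -0.14 (-0.21 to -0.06). Its second probe was called lower in clone #4-7 at -0.36 and not called in clone #3-1 at 0.07. Of the 10 genes of beta-catenin and its destruction complex, 3 were called higher and 2 lower in clone #3-1, and 1 higher and 2 lower in clone #4-7. APC, the tumour suppressor of the complex, was 0.02 and 0.11, called in neither clone. APC2, its relative, was higher in clone #3-1 at 0.33 and lower in clone #4-7 at -1.76, and of its 3 dimmer probes 1 was called in the same directions and 2 were not called. GSK3A was higher at 0.70 and 0.25, and AXIN1, the relative of AXIN2, was higher in clone #3-1 at 0.42 and 0.24 in clone #4-7, not called. GSK3B was lower in clone #3-1 at -0.35, or 0.29 with ratios only centred on the median, and 0.12 in clone #4-7, not called.

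Among 14 cytoplasmic regulators, 1 was called higher and 3 lower in clone #3-1, and 1 higher and 1 lower in clone #4-7. DACT1, a partner of Dishevelled, was lower in clone #3-1 at -1.07 and 0.05 in clone #4-7, not called, and its second probe gave -0.48, called, and -0.07, not called. NKD2, the relative of NKD1, was lower in clone #3-1 at -0.64, or 0.05 with ratios only centred on the median, and -0.17 in clone #4-7, not called, and its dimmer probe was called in neither clone. The casein kinase gene CSNK1D was 0.12 in clone #3-1, not called, and higher in clone #4-7 at 0.34, and its other probe was called higher in both. CSNK1E was lower in clone #3-1 at -0.29, or 0.55 with ratios only centred on the median, and -0.17 in clone #4-7, not called. Of its other probes, A_24_P918436 was called lower in both clones at -0.24 and -0.23, and A_23_P29263 was called in neither at 0.11 and 0.06.

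Among 18 nuclear partners of beta-catenin, 4 were called higher and 4 lower in clone #3-1, and 1 higher and 5 lower in clone #4-7. CTNNBIP1, which encodes the inhibitor ICAT that keeps beta-catenin from TCF factors, was lower in both at -1.36 and -0.81. TLE1, a co-repressor that TCF factors recruit, was lower in clone #3-1 at -1.08 and -0.18 in clone #4-7, not called. CREBBP, a co-activator, was higher in clone #3-1 at 0.60 and -0.12 in clone #4-7, not called, and its other 2 probes were also called higher in clone #3-1. TCF7L2, the main TCF factor of the colon epithelium, was -0.10 in clone #3-1, not called, and lower in clone #4-7 at -0.57, and its second probe gave 0.01, not called, and -0.52.

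Among 34 other reported targets of beta-catenin, 8 were called higher and 9 lower in clone #3-1, and 6 higher and 15 lower in clone #4-7. Of all genes, 16.1% were called higher and 16% lower in clone #3-1, and 12.3% and 15.6% in clone #4-7. Of the 34 targets, 27 were well above background. When only probes well above background were fitted, 45% of them were called in clone #4-7, in either direction. The counts of the 34 targets are from the fit to all probes. SP5, a transcription factor that beta-catenin switches on directly, was higher in both at 1.83 and 1.15, with 1.82 and 1.16 at a second probe and no call at the last. BAMBI, a decoy receptor of the TGF-beta family, was lower in both at -0.59 and -2.46. The 5 pathway genes with the largest called difference between the clones were JUN, BMP4, JAG1, FRZB and ETS2. JUN, a subunit of the AP-1 factor, was 0.53 and 0.52 on the arrays of clone #3-1 and -3.13 and -3.14 on those of clone #4-7. BMP4, a ligand of the BMP pathway, was 2.60 and 2.59 in clone #3-1 and -0.70 and -0.67 in clone #4-7, the same order as AXIN2. JAG1, a Notch ligand, was 1.01 and -1.61 in clone means, and ETS2 was 1.06 and -1.20, with the same directions at its other 2 probes. ASCL2, the stem cell factor of the crypt, was not well above background in either clone.

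**Figure D5:**
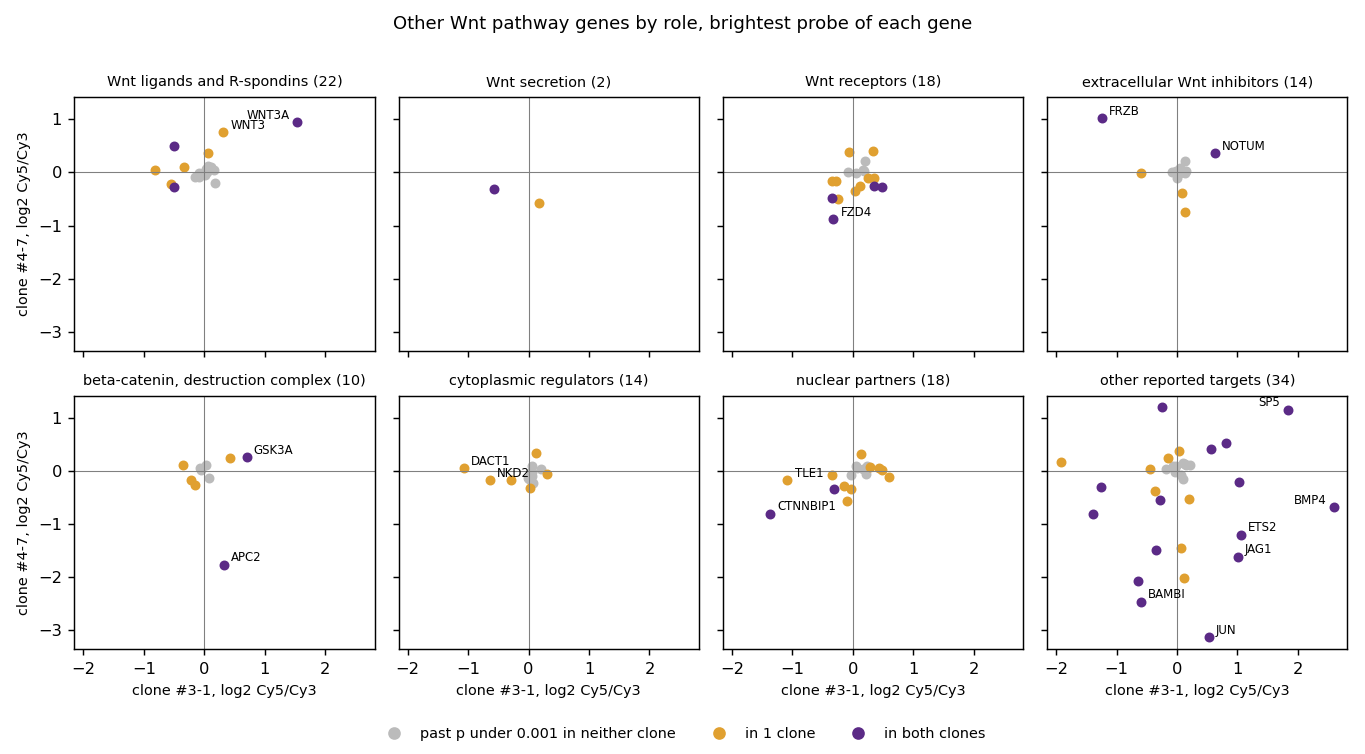
Mean log2 ratio of Cy5 over Cy3 in clone #3-1 (x axis) and in clone #4-7 (y axis) of the 132 other pathway genes, a panel per role with its number of genes. Grey points were called in neither clone, orange points in 1 and purple points in both; the widest spread is among the other reported targets, where JUN lies at 0.52 and -3.13 and BMP4 at 2.59 and -0.68.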

How the data were processed

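RNA of HCT116 shRNA clones #3-1 and #4-7 was measured against an empty vector control on 4 Agilent 2-colour arrays, 2 per clone. The authors deposited the mean intensity of each spot and the median of its local background in Cy5 and Cy3, as read from the scans without normalization, together with the scanner software's processed intensities. The same deposited files hold the log10 ratio of Cy5 over Cy3, and the authors' table repeats it rounded, with a median of 0 on every array. Per the file headers the software was Feature Extraction 9.5.3.1, while the submitters' processing notes name version 8.5.1.1. The headers place all 4 arrays on the same slide with the same scan time, so neither could be tested as a batch.

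Intensities were corrected with limma 3.58.1 in R 4.3.3 by normexp (offset 50), normalized by loess within arrays and by Aquantile between arrays, and averaged over the spots of a probe, after 87 to 125 outlier spots an array were left out. A linear model with a term per clone was fitted to all 41000 probes over the 4 arrays with empirical Bayes moderation, and the difference between the clones was a contrast. A result was called at an unadjusted p under 0.001, the threshold of the study's methods, and Benjamini-Hochberg adjusted p-values are over all probes. Since the control is 1 sample, its own spread is not part of any test against 0. A fold is understated for dim probes by the offset. The fit was tested on simulated data. Arrays with the same replicate number did not deviate together (r = -0.01 across 40940 probes), so numbers were not used as pairs.

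The 10 target genes and the pathway and marker lists were chosen with earlier results of these data known. The genes named are all probes of the targets, CTNNB1, APC and TCF7L2, up to 4 genes per role with the largest mean absolute log2 ratio among those called in at least 1 clone and well above background, the 5 genes with the largest called difference between the clones, and CDH1. LGR5, ASCL2 and the cell type markers were named in addition after their values were seen, and not every marker is reported here. Where a gene has several probes, the brightest over the 4 arrays stands for it. Probe positions are those of the files (build hg17) and no gene annotation of that build was used. Alternatives covered the background correction, the source of the ratios, normalization, filters, the threshold, single arrays left out and a replicate block, and quantile normalization of the single channels was added after seeing the data.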

Additional observations from a re-analysis of the deposited data

Results flagged for a closer look

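The change against the empty vector differed between clone #3-1 and clone #4-7, by the contrast of the limma fit, for 7 of the 17 Wnt target probes. The log2 ratio of clone #3-1 minus that of clone #4-7 was 2.59, 1.45 and 2.02 at the 3 AXIN2 probes, 0.79 for TCF7 and 0.70 for RNF43. It was -0.95 for DKK1 and -0.85 for EPHB3. AXIN2 is the target gene whose clones lay on opposite sides of 0 with both called, at all 3 of its probes. Each of its calls in clone #4-7 was lost under some alternative settings. In each of these 7 probes the Cy3 level moved more between the clones' arrays than the Cy5 level did. It moved by 0.47 to 2.52 log2 units in size, against at most 0.23 in Cy5. Over all probes, too, Cy3 was the channel that differed between the clones, although it is labelled as the common control. Which RNA it held was not tested in any other way.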

How the results depend on the processing

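RNF43 kept its direction and its calls in both clones under every alternative that was run, and so did AXIN2 at its brightest probe in clone #3-1. Over all alternatives, 754 log2 ratios of target probes kept direction and call, 49 lost the call, 19 gained one, 21 that were not called changed sign and 1 called ratio turned. For the named pathway genes these numbers were 1464, 201, 65, 13 and 7. The counts of calls, 10, 7 and 7 target probes and 52, 52 and 46 pathway genes (clone #3-1, clone #4-7, difference), moved by over 1.5 times as follows. With a normexp offset of 0, 3 target probes were called in clone #4-7, and 32, 24 and 22 pathway genes in the 3 comparisons. With plain background subtraction these were 4, and 34, 27 and 24. With the software's processed signals 4 target probes were called in clone #4-7, and 34 and 30 pathway genes in clone #4-7 and for the difference, and with the log ratios of the authors' table the target probes called in clone #4-7 were 3. Median centring in place of loess left 4, 1 and 3 target probes and 22, 15 and 13 pathway genes. It turned the ratio in clone #3-1 to 0.14 for MYC (brightest probe), 0.11 for PORCN, 0.16 for FZD4, 0.29 for GSK3B, 0.049 for NKD2 and 0.55 for CSNK1E, and the difference to 0.013 for GSK3B and 0.020 for NKD2. It keeps trends of the ratio with brightness that loess removes, and the cause of each change was not tested. A Benjamini-Hochberg adjusted p under 0.05 gave 11 target probes for the difference, and 80 and 73 pathway genes in clone #3-1 and for the difference. Counting every probe of the pathway genes gave 79 and 72. Leaving out each array in turn gave 8 to 9 target probes in clone #3-1, 3 (without array 1 of clone #4-7) to 7 in clone #4-7 and 7 for the difference. For pathway genes it gave 33 (without either array of clone #3-1) to 44 in clone #3-1, 24 to 44 in clone #4-7 and 27 to 33 for the difference, lowest without array 1 of clone #4-7. The lone array of a clone is then assumed to vary like those of the other clone. A replicate block gave 10, 7 and 7 target probes and 47, 43 and 39 pathway genes; with it NKD1 lost its call in clone #3-1 and the third MYC probe gained one there. Fitting each clone on its own 2 arrays gives no value for the difference. Aquantile leaves ratios unchanged by its construction, so leaving it out changed nothing.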
